A study of Mus musculus with 2 samples.

Results

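The genes described here are 10 core members of the Notch pathway: the receptor genes Notch1, Notch2, Notch3 and Notch4, the ligand genes Dll1, Dll3, Jag1 and Jag2, and the nuclear effector genes Rbpj and Maml1. They were chosen by symbol among the 15127 protein-coding genes with a deposited count, and all 10 were in the table. The counts came from poly(A) RNA of pSM44, a female embryonic stem cell line of an F1 cross between 129 and castaneous mice, in which doxycycline switches on Xist, the RNA that silences an X chromosome, from the endogenous locus on the 129 allele. Both libraries were of 1 group, grown in serum-free 2i/LIF medium, which keeps stem cells in a naive state, and exposed to 2 μg/mL doxycycline for 24 h. The counts formed 1 column with a total of 10017978, and the sources used here do not say whether it pools both libraries. Each gene therefore had 1 value, without replicate error, and untreated cells were not analysed here, so no value measures a response to doxycycline or Xist.

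Notch signalling passes between touching cells. A Delta or Jagged ligand on the surface of a cell binds a Notch receptor on its neighbour, a metalloprotease and then γ-secretase cut the receptor, and the freed intracellular part enters the nucleus. There it joins RBPJ, a DNA-binding protein that otherwise holds target genes in check with corepressors, and recruits a Mastermind coactivator to switch on genes of the Hes and Hey families. In the embryo the pathway is known for timing the somites, holding back neuronal differentiation and choosing between arterial and venous fate.

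The markers of the labelled cell type were high, and some markers of other cell types were detected too. All 8 listed stem cell markers were at 311.7 CPM (the count scaled by the column total) or more. Of 24 markers of neural, endothelial, paraxial mesoderm and fibroblast cells, cell types with their own uses of Notch, 18 were listed and 11 were at CPM 1 or more, against 54.5% of all annotated protein-coding genes at that level. The summed level of the 6 endothelial markers was 312.5 CPM, of which Pecam1, also expressed by naive stem cells, gave 295.6. The angiopoietin receptor gene Tek was at 13.6 and the endothelial cadherin gene Cdh5 at 0.299. The summed levels were 72.7 CPM for the neural list, most of it Nes at 66.1 with Pax6 at 6.19, and 39.03 for the fibroblast list, led by Thy1 at 26.7. The sum was 21.6 CPM for the paraxial mesoderm list, led by T at 12.1 and Mesp2 at 8.38. The neural markers Neurog2 and Dcx and the fibroblast markers Col3a1, Dcn and Lum were not listed. The part of other cells in the Notch values was not tested.

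Scaled to exon length, all receptors, Rbpj and the Jagged ligands were expressed at middle levels, and the Delta ligands and Maml1 were near the lower end. All 10 members were at CPM 1 or more, the level called detected, which took 11 counts. That share reads against 80.1% of all listed genes and 54.5% of the 21992 protein-coding genes of the GENCODE M21 annotation. At CPM 5 or more there were 7 members, against 66.7% of listed genes. The members summed to 4047 counts, or 0.0404% of the total. Their median was 34.1 CPM, against 18.3 CPM over all listed genes. The members have long transcripts, with a median of 7.51 kb of merged exon against 4.25 kb over all listed genes. Scaled to length, their median level was 3.99 CPM per kilobase of exon, against 3.81 over all listed genes, and 5 of the 10 were above that value. Levels of different genes are compared below only per kilobase of exon, with 95% exact Poisson intervals that cover counting error alone. The sources used here do not say whether exons or whole genes with introns were counted, and the rows of the file are sorted by count over gene span. If whole genes were counted, a level per kilobase of exon also holds reads from introns. Some orders that turn with gene span are named below, and an order without such a remark may turn too.

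**Figure D1:**
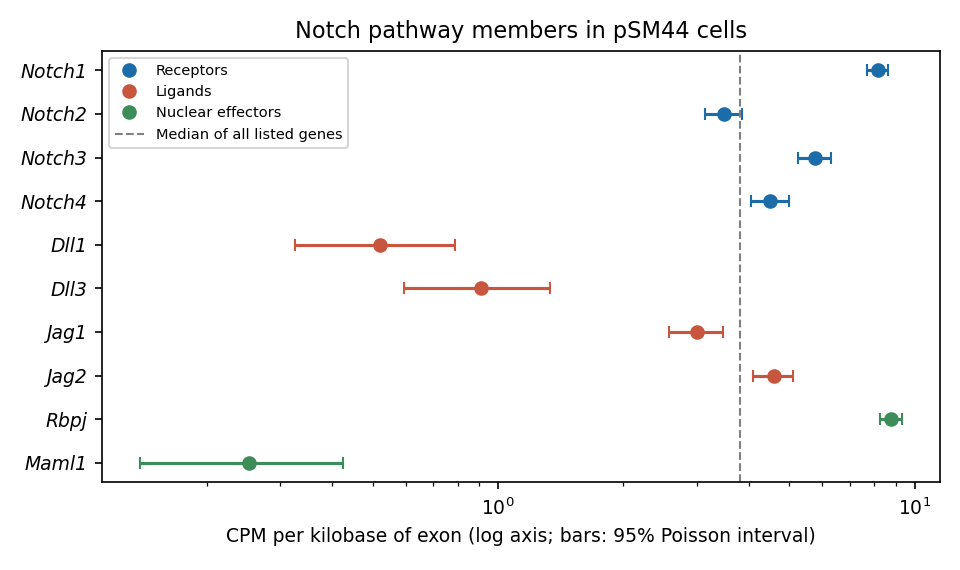
Level of each member in CPM per kilobase of exon on a log axis, with 95% Poisson intervals, coloured by role, and the median of all listed genes as a dashed line. The 4 receptors lie between 3.48 and 8.16, Jag1 and Jag2 among or just below them, and Dll3, Dll1 and Maml1 lie under 1.

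Per kilobase of exon, Notch1 was the highest of the receptor genes and Notch2 the lowest, within a range of 2.35-fold. By gene span they stood further apart, at 1.98 and 0.274 CPM per kilobase. Notch1 (chromosome 2, 26457903 to 26516663, GRCm38), the receptor best known from T cell development and leukaemia, had 1164 counts. Its level was 8.16 CPM per kilobase of exon (interval 7.70 to 8.65), above 64.8% of listed genes. Notch3 (chromosome 17, 32120820 to 32166852), the receptor of vascular smooth muscle cells, had 466 counts and a level of 5.75 (5.24 to 6.30). Notch4 (chromosome 17, 34564268 to 34588503), best known from endothelium, had 363 counts and a level of 4.50 (4.04 to 4.98). Notch2 (chromosome 3, 98013527 to 98150361), needed for marginal zone B cells and bile duct formation, had 376 counts and a level of 3.48 (3.14 to 3.85). The counts of Notch2 and Notch4 were close, and the order per kilobase followed from the exon length of Notch2, 10.8 kb against 8.06 kb for Notch4.

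The differences between the receptors exceeded counting error, but some orders depended on the length that counts were divided by. The ratio of Notch1 to Notch3 per kilobase was 1.42 (interval 1.27 to 1.58), that of Notch1 to Notch4 was 1.82 (1.61 to 2.05) and that of Notch1 to Notch2 was 2.35 (2.09 to 2.64). Notch3 was above Notch4 by a ratio of 1.28 (1.11 to 1.47), and Notch4 above Notch2 by 1.29 (1.11 to 1.50). By gene span the order of Notch3 and Notch4 turned, with 1.01 CPM per kilobase of span for Notch3 and 1.50 for Notch4. Notch1 made up 37.3% of the summed receptor level per kilobase, Notch3 26.3%, Notch4 20.5% and Notch2 15.9%. Of the exonic bases of Notch3, 44.8% lay under the span of Gm17276, an antisense gene, against 10.5% for Notch1 under other genes. Exons of other genes covered only 6.03% for Notch3 and 9.76% for Notch1. Whether reads under the span of another gene were left out of the counts is not known. When counts were divided only by the exonic bases under no other gene, Notch3 stood at 10.4 CPM per kilobase and Notch1 at 9.12, which turned their order. With counts divided by the longest transcript, coding bases, gene span or nothing, Notch1 kept the largest share, from 41.6% to 49.1%. No receptor shared a 50-base stretch of transcript with another receptor, so reads of 1 Notch gene could not match another over that length.

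Per kilobase of exon, the ligand genes split into Jagged genes near the receptors and Delta genes far below. The split was less clear by gene span. There Jag1 was at 0.496 CPM per kilobase, Dll3 at 0.299, the receptor gene Notch2 at 0.274 and Dll1 at 0.231. Jag2 (chromosome 12, 112907819 to 112929776), a ligand needed for limb and palate development, had 320 counts and a level of 4.59 CPM per kilobase of exon (interval 4.10 to 5.12). Jag1 (chromosome 2, 137081456 to 137116644), the ligand gene mutated in Alagille syndrome in human, had 175 counts and a level of 3.00 (2.57 to 3.48). Jag2 exceeded Jag1 by a ratio of 1.53 (1.27 to 1.85), and both were above the Delta genes.

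Dll3 (chromosome 7, 28293553 to 28302238), an atypical ligand of the somite clock that does not activate Notch on neighbouring cells, had 26 counts and a level of 0.911 (0.595 to 1.33). Dll1 (chromosome 17, 15367354 to 15376872), the activating ligand of somites and neural progenitors, had 22 counts and a level of 0.521 (0.326 to 0.788). The ratio of Dll3 to Dll1 was 1.75, with an interval of 0.953 to 3.24 that included 1, so their order was not resolved at this depth. Jag1 exceeded Dll3 by a ratio of 3.29 (2.17 to 5.18) and Dll1 by 5.76 (3.69 to 9.43). Of the Dll1 exonic bases 25.9% lay under a non-coding gene, whereas Dll3, Jag1 and Jag2 had no such overlap. Jag2 held 50.9% of the summed ligand level per kilobase, Jag1 33.3%, Dll3 10.1% and Dll1 5.77%.

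**Figure D2:**
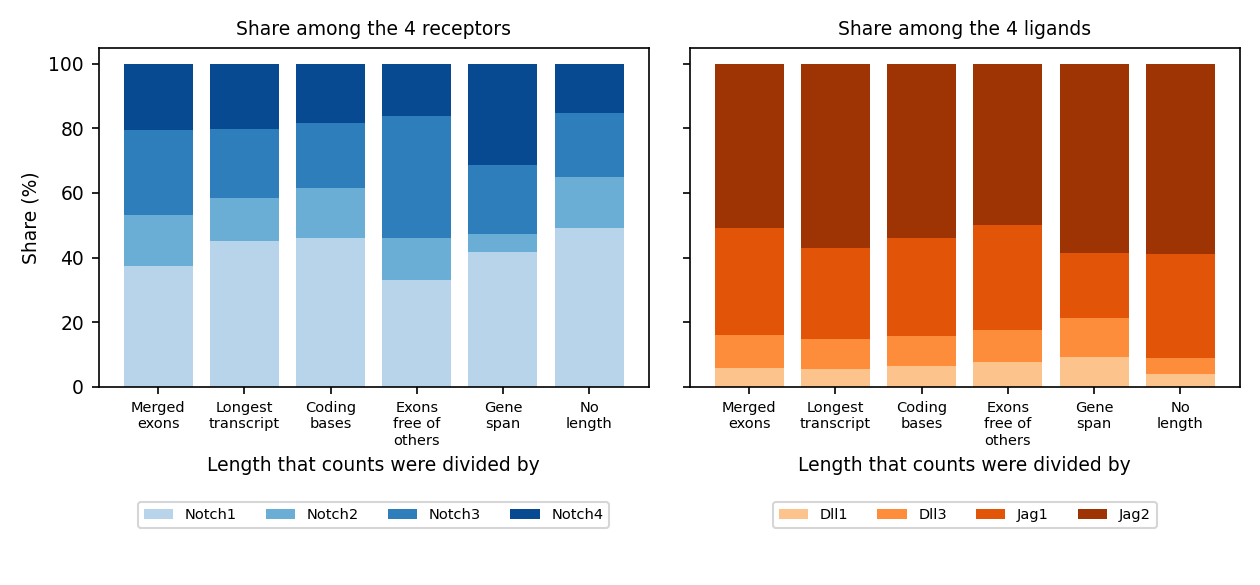
Share of each gene in the summed level of the 4 receptors (left) and of the 4 ligands (right), in percent, for each length that counts were divided by. Jag2 has the largest ligand share in every bar, from 49.9% to 58.9%, and Notch1 the largest receptor share except with exons free of other genes, where Notch3 reaches 37.6%.

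The receptors together were 2.43 times as high as the ligands together per kilobase of exon (21.9 against 9.02 CPM per kilobase; interval of the ratio 2.20 to 2.67). The ratio ranged from 1.92 with gene span to 4.36 without a length. The other ligand genes of the pathway were low as well. Dll4, the Delta ligand of arteries, had 2 counts, and the non-canonical ligand genes Dlk2, Dner and Dlk1 had 3, 34 and 92. Of these 4 genes, 2 were at CPM 1 or more and the highest was Dlk1, an imprinted inhibitor of adipocyte formation, at 1.62 CPM per kilobase of exon, below Jag1. That order turned by coding bases (Dlk1 7.53, Jag1 4.78 CPM per kilobase) and by gene span (0.873 and 0.496).

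The nuclear effectors stood at opposite ends of the members. Rbpj (chromosome 5, 53466152 to 53657362), which encodes the DNA-binding protein that all the receptors act through, had 1121 counts. Its level of 8.78 CPM per kilobase of exon (interval 8.27 to 9.31) was the highest of the members and above 66.3% of listed genes. The ratio of Rbpj to Notch1 was 1.08 (0.989 to 1.17), so these top members did not differ beyond counting error. Of the 50-base stretches of Rbpj transcripts, 10.6% also occurred in other genes, the Rbpj-ps3 and Rbpj-ps1 pseudogenes among them, which makes its count uncertain. That share counts distinct stretches and does not measure the share of reads affected. Divided by its longest transcript of 5485 bases in place of 12750 merged exonic bases, Rbpj was at 20.4 CPM per kilobase and Notch1 at 12.2. By gene span Rbpj was not the highest, at 0.585 CPM per kilobase against 1.98 for Notch1, 1.50 for Notch4, 1.45 for Jag2 and 1.01 for Notch3. Over exonic bases under no other gene, Rbpj at 8.78 was below Notch3 and Notch1.

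Maml1 (chromosome 11, 50255634 to 50292311), a Mastermind coactivator that binds the surface formed by RBPJ and the Notch intracellular part, had 14 counts. Its level was 0.253 CPM per kilobase of exon (0.138 to 0.424), and Rbpj exceeded it by a ratio of 34.7 (20.6 to 63.7). The span of Gm26542, an antisense gene, covered 89.4% of the Maml1 exonic bases, while exons of that gene covered 2.44%. Among all 293 annotated protein-coding genes with 80 to 95% of their exonic bases under another gene, 33.1% were at CPM 1 or more and the median of those listed was 0.312 CPM per kilobase. Detection did not fall steadily with overlap: it was 74.5% at 10 to 30% of overlap, where Notch1 and Dll1 lie, 64.6% at 30 to 50%, where Notch3 lies, and 58.9% at 50 to 80%. Among genes with at most 10% of overlap, 57.2% were at CPM 1 or more and the median was 4.31. The Maml1 level was near the median of the listed genes with as much overlap, which leaves out those not listed. Its count divided by only the exonic bases free of other genes gave 2.38 CPM per kilobase, above Dll3 and Dll1. That value takes all its reads to lie on those bases. Whether the overlap lowered the Maml1 count was not tested. The other Mastermind genes were lower with little overlap: Maml3 had 7 counts and Maml2 had 1.

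**Figure D3:**
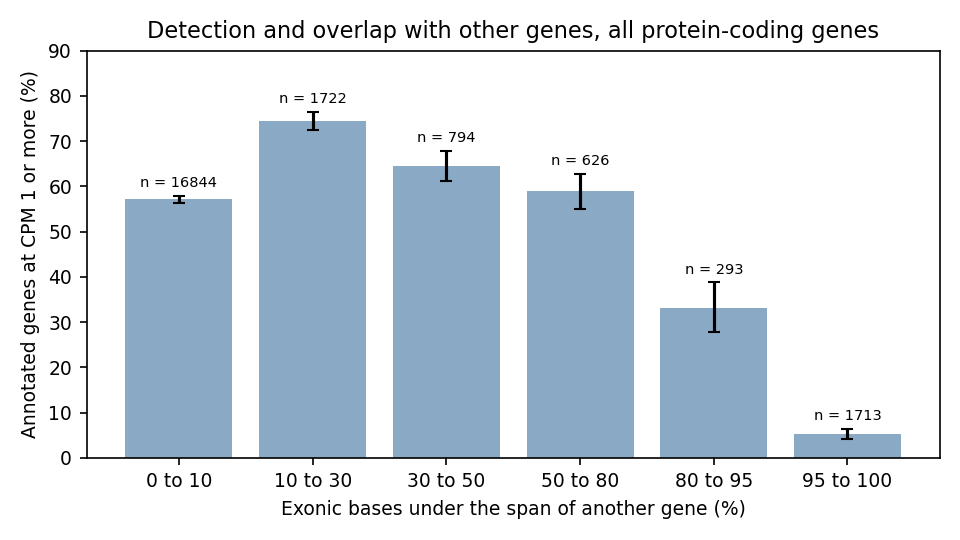
Share of annotated protein-coding genes at CPM 1 or more, in percent with 95% Clopper-Pearson intervals, by the share of exonic bases under the span of another gene. The share is 57.2% in the first bin, which holds 6 of the 10 members, 74.5%, 64.6% and 58.9% in the next bins, 33.1% in the 80 to 95% bin of Maml1 and 5.25% in the last bin.

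Set in order per kilobase of merged exon, the members ran from Rbpj through Notch1, Notch3, Jag2, Notch4, Notch2, Jag1, Dll3 and Dll1 to Maml1. Of the 9 neighbouring pairs in that order, 4 had a ratio whose interval included 1. Besides Rbpj with Notch1 and Dll3 with Dll1, these were Jag2 with Notch4 (ratio 1.02, interval 0.875 to 1.19) and Notch2 with Jag1 (1.16, 0.968 to 1.40). The largest step lay between Jag1 and Dll3, and the members on its lower side were the Delta genes and Maml1. By gene span the largest step lay between Dll1 at 0.231 and Maml1 at 0.0381 CPM per kilobase. The 3 members on chromosome 17 were Notch3, Notch4 and Dll1.

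**Figure D4:**
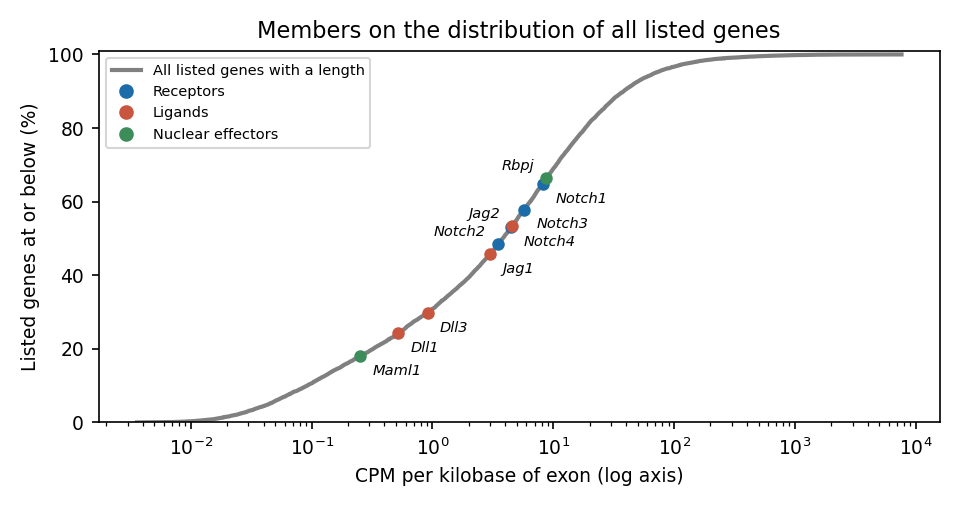
Cumulative share of listed genes, in percent, by CPM per kilobase of exon on a log axis, with the members marked by role. The members from Jag1 to Rbpj lie between the 45.8% and 66.3% marks, and Dll3, Dll1 and Maml1 lie between 18.02% and 29.8%.

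The sequence around RefSeq transcript starts was searched for TGGGAA, the core of the site that RBPJ binds, on both strands (TTCCCA on the other), in RefSeq windows of 250 bases before to 50 after each start. The Rbpj starts lie inside the gene as GENCODE draws it, downstream of its first annotated base. All 10 members had a window, and Rbpj alone among them held the motif. Its copies started at -149 and -65 from the RefSeq start used for the stretch below. Counted by window, 2 of the 12 windows of the members held it, both of Rbpj. Of all 32851 windows 25.6% held it, and of the windows of listed genes 23.6%. Of 7 canonical target genes 4 had a window, and Hes5, Hes7 and Hey2 held the motif while Nrarp did not. Hes1, Hey1 and Heyl had no window and were not searched. The stretches below are those of Rbpj, the member with the motif, and of Hes5 and Hey2, targets with a pair of copies each. They are given 5′ to 3′ on the gene's strand with the motif in capitals, on GRCm38.p6, and stop where GENCODE places an exon of the gene.
Rbpj, chr5:53590096-53590213, plus strand: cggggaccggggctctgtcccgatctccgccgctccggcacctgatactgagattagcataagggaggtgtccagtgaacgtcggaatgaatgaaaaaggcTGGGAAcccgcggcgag
Hes5, chr4:154960673-154960922, plus strand: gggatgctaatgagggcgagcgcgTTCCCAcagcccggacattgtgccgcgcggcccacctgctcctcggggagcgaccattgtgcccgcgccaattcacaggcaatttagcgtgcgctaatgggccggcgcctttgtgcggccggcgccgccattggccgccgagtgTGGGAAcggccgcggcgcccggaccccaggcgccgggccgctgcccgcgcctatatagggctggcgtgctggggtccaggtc
Hey2, chr10:30842802-30843033, minus strand: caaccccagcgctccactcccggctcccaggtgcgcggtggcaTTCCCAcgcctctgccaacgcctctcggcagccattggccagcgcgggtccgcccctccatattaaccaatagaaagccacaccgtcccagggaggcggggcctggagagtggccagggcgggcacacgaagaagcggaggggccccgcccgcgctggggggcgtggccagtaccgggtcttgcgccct
The Rbpj copy at -65 lies past the printed stretch. In Hes5 the copies start at -226 and -82, and in Hey2 at -207 and, past the printed stretch, at -3. A match of these letters is a description of the sequence and does not show binding.

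Of the canonical targets, Hes1 was high and the others were low or not listed. Hes1 (chromosome 16, 30064384 to 30067796), a repressor that holds progenitors undifferentiated, had 818 counts and a level of 40.1 CPM per kilobase of exon, above 90.5% of listed genes. It exceeded Notch1 by a ratio of 4.91 (4.48 to 5.37). Hey1 (chromosome 3, 8663359 to 8667256), a repressor of the heart and vessels, had 59 counts and a level of 1.80. Hes1 exceeded Hey1 by a ratio of 22.2 (17.1 to 29.5). These were the 2 of 7 targets at CPM 1 or more, against 54.5% of annotated genes. Hey2 had 3 counts, Hes5, a target in neural progenitors with 49.2% of its exonic bases under another gene, had 2, and Hes7, an oscillator of the somite clock, had 1. Hes5 and Hey2, whose sequences are printed above, thus had no more than 3 counts each. Hes1 and Hey1 were not searched for the motif, so motif and level cannot be compared across the targets. Heyl, free of overlap, and Nrarp, a feedback inhibitor of which 99.1% of exonic bases lay under an antisense gene, were not listed. The file lists no count under 1, so a gene that is not listed is not described as silent.

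Most genes of the enzymes that build, cut and activate the receptors were detected. All 7 genes of γ-secretase, the protease that frees the intracellular part, were at CPM 1 or more. Of all listed genes 80.1% reached that level, and of all annotated genes 54.5%. The counts of each list below read against the same shares. Psenen, which encodes the smallest subunit, was highest at 26.0 CPM per kilobase of exon, followed by nicastrin (Ncstn) at 19.5 and Aph1a at 15.9. By gene span Aph1a at 12.7 was above Ncstn at 4.62. Psenen and Aph1a are uncertain, since 23.4% and 39.5% of their 50-base stretches also occurred in other genes. Psen2, which encodes a catalytic subunit, was at 2.86. Aph1b and Aph1c, paralogs that share 18.4% of the 50-base stretches of Aph1c, so that some of their reads may be split between them, were at 0.870 and 0.422. Adam10, the metalloprotease of ligand-induced cleavage, was at 25.3, Furin, which cuts the receptor on its way to the surface, at 10.5 and Adam17 at 6.43. By gene span Furin at 5.75 was above Adam10 at 1.23.

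Of 9 glycosyltransferase genes that modify the receptor's EGF repeats, 8 were at CPM 1 or more, near the 80.1% of all listed genes. Poglut1, which adds O-glucose, was highest at 19.0 CPM per kilobase of exon, and the xylosyltransferase gene Xxylt1 was at 18.3. By gene span the Fringe gene Rfng was highest at 7.27, with Poglut1 at 3.52. Pofut1, which adds the O-fucose that Fringe enzymes extend, was at 3.50. Among the Fringe genes, which tune the response to Delta against Jagged ligands, Rfng was at 10.1, Mfng at 5.94 and Lfng, the Fringe of the somite clock, at 0.917. The lowest was Gxylt2 with 6 counts. Genes of the Mind bomb and Neuralized ubiquitin ligases, which make ligands active by endocytosis (Neuralized as known from fly), all reached CPM 1, with Mib2 at 15.9, Mib1 at 6.64, Neurl1a at 6.51 and Neurl1b at 0.615.

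Genes that restrain or remove the receptor were mostly above the median of all listed genes. Of 10, 9 were at CPM 1 or more, against 80.1% of listed and 54.5% of annotated genes. The ubiquitin ligase gene Nedd4, which has many substrates, stood apart at 106 CPM per kilobase of exon with 11632 counts. Dtx1, a Deltex ligase, was at 10.6, Numb, an adaptor passed to a single daughter cell in asymmetric divisions, at 7.19, Itch at 6.80 and Numbl at 4.96, and Dtx4 was lowest at 1.85. Fbxw7 (chromosome 3, 84815268 to 84979198), which marks the intracellular part for destruction, was not listed, and its whole span lay inside another annotated gene.

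Corepressor genes were all detected, and so were the coactivator genes outside the Mastermind family. All 9 corepressor genes reached CPM 1, against 80.1% of listed genes, and their median was 12.1 CPM per kilobase of exon. Hdac1 was highest at 70.4, uncertain because 35.5% of its 50-base stretches occurred in other genes, and Ncor1 was at 12.1 and Spen at 6.20. L3mbtl3 was lowest at 1.37. The spans of other genes covered 53.9% of the exonic bases of the corepressor gene Cir1, 47.6% of those of the coactivator gene Snw1 and 41.6% of those of Numbl. Exons of other genes covered 11.7% for Cir1, 44.25% for Snw1 and 0.98% for Numbl. Of 7 coactivator genes 5 were at CPM 1 or more, Kat2a at 42.9, Kat2b at 21.9, Snw1 at 13.3, Crebbp at 6.03 and Ep300 at 5.77, and the 2 below were Maml2 and Maml3. Over all 9 lists, 49 of 60 pathway genes were at CPM 1 or more, against the 54.5% of annotated genes, and 36 were above 3.81 CPM per kilobase, the median of all listed genes. Of the other 11, 8 were listed under CPM 1 and 3 were not listed.

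**Figure D5:**
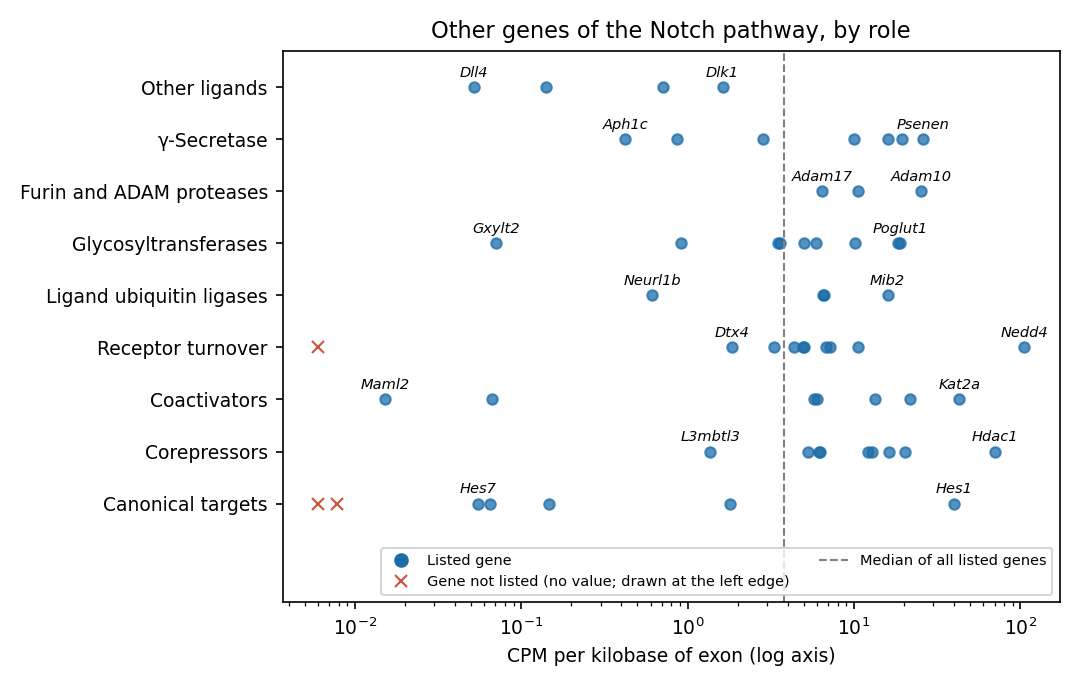
Level of 57 listed pathway genes outside the 10 members, in CPM per kilobase of exon on a log axis, by role, with the lowest and highest gene of each list named and crosses for the 3 genes not listed. Dots of the proteases and corepressors lie mostly right of the median of all listed genes, and of the canonical targets Hes1 alone does.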

How the data were processed

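Per the labels' protocols, poly(A) RNA was captured on oligo-dT beads, fragmented and ligated to adaptors before sequencing. The submitters' processing notes name GRCm38.p6 as the build and, as tools, featureCounts (Subread 1.6.4), HISAT2, SAMtools and Trimmomatic 0.38. The deposited file holds 1 column of raw counts, whole numbers from 1 to 117610, for gene symbols. The sources used here do not give the annotation release, the strand setting or the counted feature. The file is sorted by counts over gene span (across genes, Spearman rho of row order with that density 0.9999).

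Counts were scaled to CPM by the total. Symbols matched GENCODE M21 (GRCm38) for 14896 genes, and the 231 unmatched held 0.860% of the counts. Exonic overlap was the share of merged exonic bases under the span of any other gene. Single counts had exact Poisson 95% intervals, ratios of counts exact conditional ones, shares of genes Clopper-Pearson ones, and shares and sums per kilobase approximate ones. All of them leave out everything but counting error, and without molecular identifiers a read is not an independent molecule. No test was made, as there was 1 group and 1 column.

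The members and lists were chosen with earlier results of these data known. Every member, and any gene of the pathway lists with at least the highest and lowest of each, could be named. The interval functions were tested on simulated counts. Alternatives covered the CPM minimum, the length, the total and overlap. Software was matplotlib 3.10.9, pandas 2.3.3, scipy 1.17.1 and numpy 2.4.6 under Python 3.11.15. Values of some genes of the lists are not reported here.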

Additional observations from a re-analysis of the deposited data

How the results depend on the processing

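Detection of pathway genes and of canonical targets stayed within 1.5 times under the other minimums (CPM 0.5 or 5, or 10 counts). The same held with only genes of at most 10% exonic overlap. The 10 detected members came to 7 at CPM 5, and 6 were left among genes of at most 10% overlap, all 6 that could be counted there. The members' median was 36.9 CPM scaled without the 20 highest genes and 3.99 per kilobase of exon. Of 40 shares under other lengths, 24 left the counting interval of the main value and 16 stayed inside it, among them all 4 ligands by coding bases and by bases under no other gene. Those that left it follow. By longest transcript they were 45.2% for Notch1, 13.2% for Notch2, 21.4% for Notch3, 28.4% for Jag1 and 57.0% for Jag2. Without a length they were 49.1% for Notch1, 19.7% for Notch3, 15.3% for Notch4, 4.79% for Dll3 and 58.9% for Jag2. The other lengths were added after the data were seen. By gene span the shares were 41.6%, 5.77%, 21.2% and 31.4% for Notch1 to Notch4 in number order, 9.30% for Dll1, 20.01% for Jag1 and 58.6% for Jag2. By coding bases they were 46.1% for Notch1, 20.2% for Notch3 and 18.4% for Notch4. By exonic bases under no other gene they were 32.9%, 13.2%, 37.6% and 16.2% for Notch1 to Notch4. The ratio of receptors to ligands was 4.36 without a length, 1.92 by gene span, 2.09 by coding bases and 3.01 by bases under no other gene. Leaving out each library was not run, since the counts had 1 column. No paired analysis was possible because there was 1 group and 1 column. At 14 to 26 counts, the intervals of Dll1, Dll3 and Maml1 are wide, and the depth did not order Dll1 against Dll3.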

Other observations

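Per kilobase of exon, receptor genes of other pathways, in lists chosen after the data were seen, spanned a wider range than the Notch receptors, which lay between 3.48 and 8.16. The ranges depend on the length used. By gene span the Notch receptors lay between 0.274 and 1.98, and the activin, BMP and TGF-beta receptors between 0.144 and 1.03. Against 21.9 CPM per kilobase of exon summed over the 4 Notch receptors, the 4 FGF receptors summed to 33.3, with Fgfr1 at 17.04 and Fgfr2 at 14.4 and with Fgfr3 and Fgfr4 under 1. The order of these sums also depends on the length. By gene span Fgfr1 was at 2.71 and Fgfr2 at 0.0501. The Fgfr2 value rests on an annotated span of 2960.9 kb, against 62.1 kb for Fgfr1. All 12 Wnt receptor genes listed were at CPM 1 or more, against 80.1% of all listed genes, with Fzd10 highest at 23.6 and Fzd4 lowest at 0.475. Of 8 activin, BMP and TGF-beta receptor genes, 7 were at CPM 1 or more, led by Bmpr1a at 10.3 and Acvr1b at 9.20, and Bmpr1b was not listed. The LIF receptor gene Lifr was at 3.17, near Notch2, and its partner Il6st at 8.97, near Notch1 and Rbpj.

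Relatives of the Hes genes that are not among the canonical targets differed in level. Hes6, which opposes Hes1 in neural differentiation, had 298 counts and 16.5 CPM per kilobase, and Bhlhe40, a stress and clock repressor, had 413 counts and 8.76. Bhlhe41 was at 0.654, Helt had 1 count, and Hes2 and Hes3 were not listed.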
